A study of Mus musculus with 8 samples.

Results

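Toll-like receptors (TLRs) are membrane sensors of microbial products, and the 10 genes described here are 7 of their genes (Tlr1, Tlr2, Tlr3, Tlr4, Tlr5, Tlr6 and Tlr9), the adaptor gene Myd88 and the coreceptor genes Cd14 and Ly86. Regions were taken by position alone: a region belonged to a member when that gene's extent was the nearest to the region's centre and lay within 100 kb. The rule gave 51 of the 160978 accessible regions in the authors' comparison, from 2 regions at Myd88 and Cd14 to 11 at Tlr4, and no region was equally near to another gene. The farthest member region lay 97.3 kb from Tlr4, where the authors' deposited table gives a log2 fold change of 0.72, and the next region out, 268 kb from that gene, stood at 0.08.

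Open chromatin was read by ATAC-seq, which tags accessible DNA with a transposase, in mouse bone marrow cells sorted for cKit and depleted of lymphoid and erythroid cells. The leukemic libraries, labelled AML (acute myeloid leukemia), were 2 of genotype URE-delta/+;Tet2+/- and 2 of URE-delta/+;Tet2-/-. The libraries labelled Normal were 1 each of URE-delta/+;Tet2+/+, URE+/+;Tet2+/-, URE+/+;Tet2-/- and URE+/+;Tet2+/+. The Normal libraries of genotype Tet2+/- and Tet2-/- were listed on a lane that held no leukemic library. The part of lane in the values was not tested. The URE is an upstream enhancer of Spi1, the gene of the transcription factor PU.1, and Tet2 encodes an enzyme that oxidises methylated cytosine. Of the Normal libraries, 1 carried the URE deletion and none carried it together with Tet2 loss, so disease state and the combined genotype cannot be told apart. The deposited comparison gave 1 fold change per region for leukemic over non-leukemic cells with low PU.1, and the sources used here do not say which libraries it set against each other. No value per library was used, so the spread between mice and the depth behind each value are unknown. Of the engineered genes, Spi1 had 5 of its 14 regions fall at an adjusted p under 0.001, down to -7.30 per the authors' deposited table, and Tet2 had 0 of 15 past 0.05. Spi1 lies on chromosome 2, where the median over all regions was -0.56, and the part of the chromosome in its values was not tested. Fewer cells of a type and less open chromatin per cell cannot be told apart.

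TLRs bind microbial lipids, proteins or nucleic acids and signal through adaptors that carry the same TIR domain, most of them through Myd88, to kinases that activate NF-kB and interferon regulatory factors. Tlr1, Tlr2, Tlr4, Tlr5 and Tlr6 act at the cell surface, whereas Tlr3 and Tlr9 act in endosomes. In blood formation these receptors are best known from monocytes, macrophages, dendritic cells and granulocytes, and they are also present on early progenitors, where their signals can push cells towards the myeloid lineage. PU.1 is a main activator of myeloid surface receptor genes.

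Promoter sequences from RefSeq (GRCm38.p6, 250 bases before to 50 after an annotated start) were found for 8 of the 10 genes. Those of Tlr2, Tlr5 and Tlr9 are shown because the region holding their start was less accessible in leukemic cells at an adjusted p under 0.05. Those of Ly86 and Myd88 are shown beside them because the region holding their start had a positive fold change, although neither passed an adjusted p of 0.05. They lie at chr3:83841559-83841858 (minus strand, Tlr2), chr1:182954538-182954837 (plus, Tlr5), chr9:106222348-106222647 (plus, Tlr9), chr13:37345095-37345394 (plus, Ly86) and chr9:119339969-119340268 (minus, Myd88). Each is printed 5′ to 3′ along its gene, and capitals mark a match on either strand to one of the 6 motifs searched.
Tlr2: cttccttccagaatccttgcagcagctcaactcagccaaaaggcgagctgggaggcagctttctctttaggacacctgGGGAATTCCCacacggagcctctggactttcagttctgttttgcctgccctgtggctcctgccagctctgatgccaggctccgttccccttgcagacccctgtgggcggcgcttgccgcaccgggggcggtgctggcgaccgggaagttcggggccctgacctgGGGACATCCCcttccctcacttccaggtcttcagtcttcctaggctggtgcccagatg
Tlr5: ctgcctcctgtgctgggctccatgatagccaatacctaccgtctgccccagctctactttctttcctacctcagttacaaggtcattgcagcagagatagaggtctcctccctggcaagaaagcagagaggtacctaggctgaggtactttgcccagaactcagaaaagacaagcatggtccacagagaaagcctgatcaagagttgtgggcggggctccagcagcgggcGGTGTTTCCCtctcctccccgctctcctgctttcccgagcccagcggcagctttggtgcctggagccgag
Tlr9: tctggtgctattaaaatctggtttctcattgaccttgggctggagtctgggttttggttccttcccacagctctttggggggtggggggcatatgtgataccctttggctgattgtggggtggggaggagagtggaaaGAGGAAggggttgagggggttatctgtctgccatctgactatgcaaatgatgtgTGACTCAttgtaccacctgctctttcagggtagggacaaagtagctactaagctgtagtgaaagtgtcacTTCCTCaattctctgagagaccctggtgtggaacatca
Ly86: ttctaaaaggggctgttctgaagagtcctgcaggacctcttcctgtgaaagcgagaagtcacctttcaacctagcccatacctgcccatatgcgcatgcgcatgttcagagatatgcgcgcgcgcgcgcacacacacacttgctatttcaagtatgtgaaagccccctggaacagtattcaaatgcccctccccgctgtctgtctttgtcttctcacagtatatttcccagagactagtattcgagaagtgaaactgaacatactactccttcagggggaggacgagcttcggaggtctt
Myd88: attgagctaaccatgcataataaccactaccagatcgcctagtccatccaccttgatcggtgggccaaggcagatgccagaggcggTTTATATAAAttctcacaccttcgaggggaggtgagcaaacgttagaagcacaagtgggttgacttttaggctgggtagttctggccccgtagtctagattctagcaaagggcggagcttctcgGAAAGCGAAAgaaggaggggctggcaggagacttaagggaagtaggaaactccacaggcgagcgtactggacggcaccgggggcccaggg

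The motif searched for PU.1 was its core, GAGGAA. For AP-1 it was TGANTCA, for RUNX factors TGTGGT and for the TATA box TATAAA. For interferon regulatory factors (IRF) it was GAAA repeated after a gap of any 2 bases, and for NF-kB it was GGGA followed by any 4 bases and then CC. The Tlr9 promoter held GAGGAA at -112 and, on the other strand, at 13 from the start, and an AP-1 match at -58; GAGGAA is in 28.3% of all 32851 promoters in the RefSeq table and the AP-1 motif in 7.81%. Tlr2 held NF-kB matches at -172 and -8, both readable on either strand, and Tlr5 held 1 at -20; that motif is in 20.7% of all promoters. Myd88 held an IRF match at -40, a motif in 3.44% of all promoters, and overlapping TATA box matches at -164 and -160, a motif in 13.6%. The Ly86 promoter held none of the 6 motifs. CG dinucleotides numbered 11 in the Tlr2 promoter, 8 in Tlr5, 0 in Tlr9, 13 in Ly86 and 13 in Myd88, against a median of 7 over all promoters. Of the promoters not shown, that of the Tlr1 start at 64933558 held GAGGAA at -23, and that of Tlr3 held 3 NF-kB matches. A Tlr6 promoter held 2 overlapping IRF matches and a RUNX match, and the RUNX motif is in 16.8% of all promoters. A match describes letters in a window and nothing more.

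Of the TLR gene regions that passed a threshold, more were lower than higher in leukemic cells; those that fell at the stricter threshold lay at Tlr2, and Ly86 held both directions. Of the 51 member regions, 35 had a negative log2 fold change and 16 a positive one, and their median was -0.50 (quartiles -1.33 and 0.20), against 0.02 (quartiles -0.71 and 0.60) over all regions. At the threshold of the authors' own sets, an adjusted p under 0.001, 2 member regions fell (3.92%), both at Tlr2, where 1.22% of all regions fell. At the same threshold 1 rose (1.96%), at Ly86, where 1.24% of all regions rose. At a looser adjusted p under 0.05, 12 of the 51 (23.5%) were lower and 3 (5.88%) were higher, against 9.21% and 7.98% of all regions. The 12 lower regions belonged to 7 genes: 3 to Ly86, 2 each to Tlr2, Tlr4 and Tlr5, and 1 each to Tlr1, Tlr3 and Tlr9; the 3 higher ones lay at Tlr6, Tlr9 and Ly86. Myd88 and Cd14 had no region past that threshold. These counts are a description, and no test of the list was made.

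**Figure D1:**
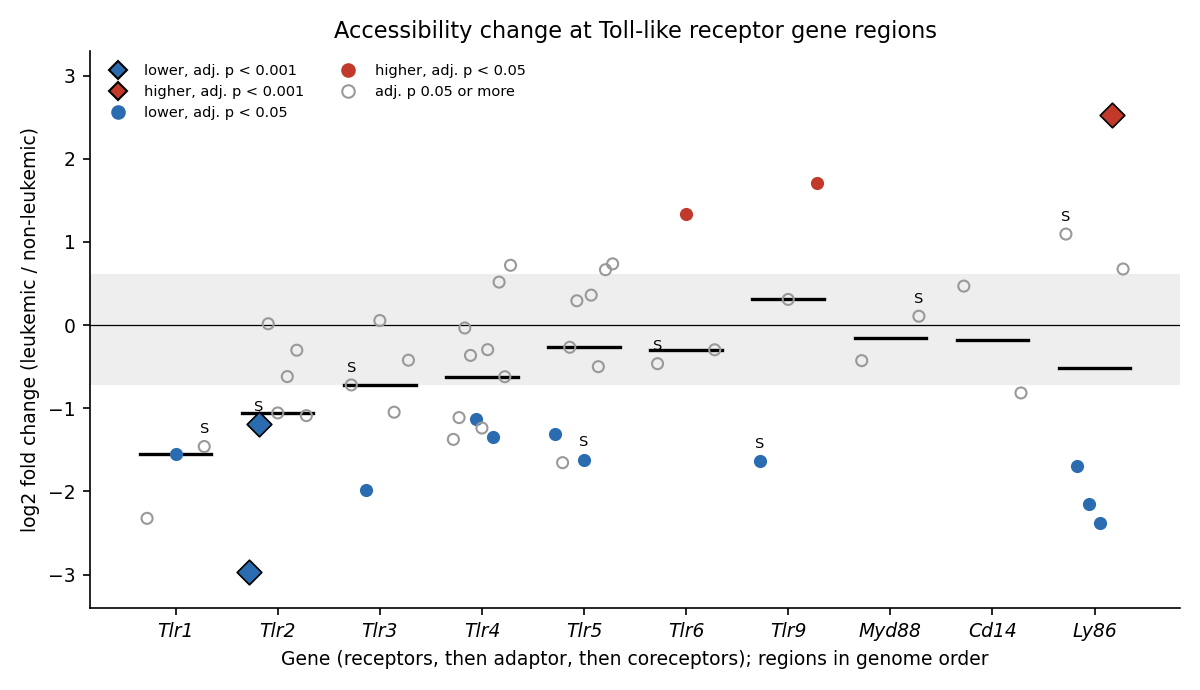
log2 fold change (leukemic over non-leukemic) of each of the 51 regions, by gene, in genome order within a gene. Bars are medians over a gene's regions, S marks a region that holds an annotated start (starts were found for all but Tlr4 and Cd14), and the grey band is the quartile range over all 160978 regions (-0.71 to 0.60). Regions of Tlr1 and Tlr2 lie at or below 0.02, and those of Ly86 run from -2.38 to 2.52.

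Member regions were more strongly read than regions at large, with a median log2 average abundance of 0.49 against -1.17 over all regions. That abundance is the authors' value per region and is not per base, and regions of high abundance passed the thresholds more often. Of the 41 member regions at or above the median abundance of all regions, 12 (29.3%) were lower and 2 (4.88%) were higher at an adjusted p under 0.05. Among all 80489 regions at or above it, the shares were 16.3% lower and 13.4% higher. The 41 were still the more abundant, with a median of 0.85 against 0.08, so this background is not matched in abundance. Centring the folds on the median of all regions, of each chromosome or of each of 10 equal classes of abundance gave member medians from -0.57 to -0.52, and 35 or 36 of the 51 stayed negative.

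**Figure D2:**
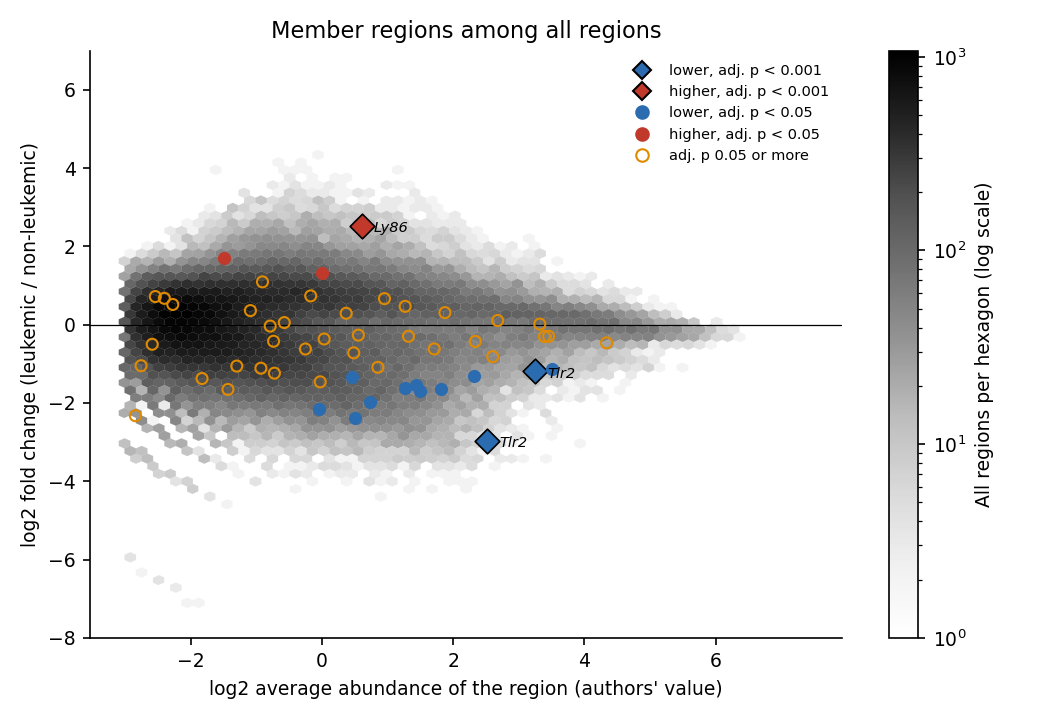
log2 fold change (leukemic over non-leukemic) against log2 average abundance, with the 51 member regions as points over the density of all 160978 regions. The regions that passed 0.001 are named; the 2 at Tlr2 have abundances of 2.52 and 3.24, and the 1 at Ly86 has 0.60.

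Tlr2, the receptor for bacterial lipoproteins that pairs with Tlr1 or Tlr6, had both regions that fell at 0.001. The region chr3:83840850-83841784 holds the annotated start and stood at -1.19, that is 2.29-fold lower in leukemic cells (adjusted p = 9.25e-04), per the authors' deposited table. The region chr3:83839392-83840189, centred 1.82 kb into the gene, stood at -2.97, 7.82-fold lower (adjusted p = 1.24e-04), per the authors' deposited table. These are the only Tlr2 regions inside the gene, and the other 5 lie upstream of it. The region 3.58 kb upstream, at chr3:83844875-83845495, was at 0.02 (adjusted p = 0.992) per the authors' deposited table. Farther upstream, the authors' deposited table gave -1.06 at 7.92 kb, -0.62 at 17.9 kb, -0.30 at 21.7 kb and -1.09 at 25.6 kb, with adjusted p from 0.105 to 0.408. In log2 abundance the 2 regions that fell had 2.52 and 3.24 per the authors' deposited table. Of the 5 upstream regions, those at 3.58 and 21.7 kb had 3.32 and 3.39, and those at 7.92, 17.9 and 25.6 kb had -1.30, 1.71 and 0.85.

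Tlr1 and Tlr6, which encode the partners of Tlr2, are neighbours on chromosome 5 and differed in their values. All 3 regions of Tlr1 were negative. The region chr5:64922870-64923516, 1.49 kb beyond the gene, stood at -1.55 (adjusted p = 0.0095) per the authors' deposited table, and the 3452 bp region that holds both Tlr1 starts, chr5:64932259-64935711, at -1.46 (adjusted p = 0.0807). The third, chr5:64918656-64919483, had -2.32 at an abundance of -2.84, near the lowest in the table, with an adjusted p of 0.109 per the authors' deposited table. At Tlr6, the region that holds both starts, chr5:64958951-64962146, was the most abundant member region, at 4.34, and stood at -0.46 (adjusted p = 0.865) per the authors' deposited table. A 273 bp region inside the Tlr6 extent, chr5:64965463-64965736, was higher in leukemic cells, at 1.33 (adjusted p = 0.0144) per the authors' deposited table. The third Tlr6 region, chr5:64969008-64970511, stood at -0.30 (adjusted p = 0.342) per the authors' deposited table. The difference between the neighbours was not tested.

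Tlr4, the receptor for bacterial lipopolysaccharide, had 11 regions, 9 of them negative, with a median of -0.62. Its most abundant region, chr4:66827164-66828964 at an end of the gene, had an abundance of 3.51 and a log2 fold change of -1.13, 2.19-fold lower (adjusted p = 0.00437), per the authors' deposited table. The region chr4:66857024-66857574, 10.7 kb beyond the other end, stood at -1.34 (adjusted p = 0.0184) per the authors' deposited table. The only Tlr4 region wholly inside the gene, chr4:66843236-66843548, had -1.24 (adjusted p = 0.0826) per the authors' deposited table. The other 8 ran from -1.37 to 0.72, and the positive ones among them were the regions 77.3 and 97.3 kb away, at 0.52 and 0.72 per the authors' deposited table.

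Tlr5, the receptor for flagellin, had values of both signs along 9 regions. The region with its start, chr1:182953502-182955430, stood at -1.62, 3.07-fold lower (adjusted p = 0.00613), per the authors' deposited table. The region chr1:182927853-182928852, 26.4 kb from the gene on the upstream side, stood at -1.31 (adjusted p = 0.00308) per the authors' deposited table and was the most abundant of the locus, at 2.32. Between them, the regions 19.1, 9.46 and 3.24 kb from the gene had -1.65, -0.27 and 0.29 per the authors' deposited table; their adjusted p-values were 0.128, 0.977 and 0.587. Inside the gene the values were 0.36 and -0.50, and 7.48 and 14.7 kb past it they were 0.67 and 0.74, per the authors' deposited table. The lower values that passed 0.05 thus lay at the start and upstream of it.

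Tlr3 and Tlr9 encode endosomal receptors, for double-stranded RNA and for DNA with unmethylated CG dinucleotides. At Tlr3, the region chr8:45414593-45416231, centred 5.03 kb upstream of the start, stood at -1.99, 3.96-fold lower (adjusted p = 0.0141), per the authors' deposited table. The region with the Tlr3 start, chr8:45409822-45410757, had -0.72 (adjusted p = 0.302) per the authors' deposited table, and the 3 regions farther upstream had 0.06, -1.05 and -0.42, with adjusted p from 0.352 to 0.970. At Tlr9, the opposite ends of a gene of a few kilobases differed in sign. The region with the Tlr9 start, chr9:106222207-106223290, stood at -1.63, 3.10-fold lower (adjusted p = 0.0052), per the authors' deposited table. The region at the other end, chr9:106226109-106226519, had 0.31 (adjusted p = 0.518) per the authors' deposited table, and a 177 bp region 1.14 kb past it, chr9:106227931-106228108, was higher, at 1.70 (adjusted p = 0.00671).

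Myd88, the adaptor shared by most TLRs and the interleukin-1 receptor family, had neither region past 0.05. The region with its start, chr9:119339570-119340154, stood at 0.11 (adjusted p = 0.799) and the region 1.43 kb beyond the other end, chr9:119334386-119334627, at -0.43 (adjusted p = 0.351) per the authors' deposited table. Their abundances of 2.68 and 2.34 were among the higher ones of the members, above the member median of 0.49.

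Cd14, which encodes the surface protein that hands lipopolysaccharide to Tlr4, lies on chromosome 18 and had 2 regions within its short extent. The region at 36726450 to 36726856, at one end, stood at -0.82 (adjusted p = 0.0555) per the authors' deposited table, just outside the looser threshold. The region at 36725570 to 36725820 stood at 0.47 (adjusted p = 0.312) per the authors' deposited table.

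Ly86 encodes a secreted protein that binds the TLR-like receptor encoded by Cd180 and is needed for its display on the cell surface. It had 6 regions, all at its start or inside the gene, 3 negative and 3 positive. The region chr13:37399430-37399717, 54.2 kb into the gene, rose, at 2.52 or 5.74-fold higher in leukemic cells (adjusted p = 1.53e-04), per the authors' deposited table. Between 2.81 and 11.1 kb, 3 regions were lower at 0.05 but missed the threshold of 0.001. They were chr13:37347813-37348498 at -1.69 (adjusted p = 0.00354), chr13:37353919-37354783 at -2.15 (adjusted p = 0.00332) and chr13:37355725-37357106 at -2.38 (adjusted p = 0.00145) per the authors' deposited table. The region with the start, chr13:37344913-37346125, had 1.1 (adjusted p = 0.0847) at an abundance of -0.90, and the last, chr13:37403658-37404014, had 0.68 (adjusted p = 0.399) per the authors' deposited table. The lower regions and the gain thus lay in separate stretches of the gene.

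**Figure D3:**
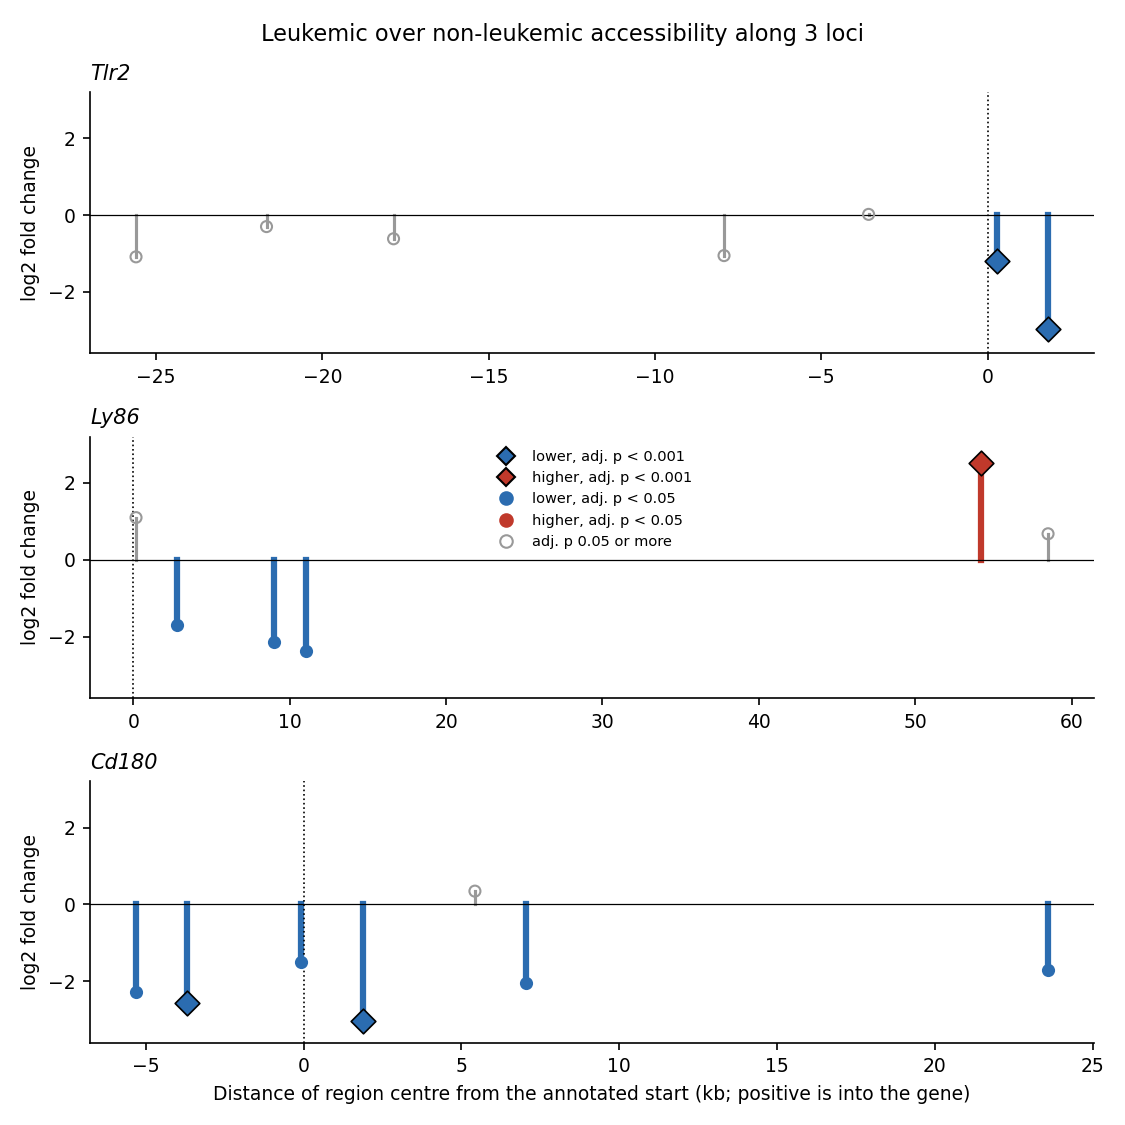
log2 fold change (leukemic over non-leukemic) of each region of Tlr2, Ly86 and Cd180 against the distance of its centre from the annotated start in kb. At Tlr2 the regions that fell lie at 0.29 and 1.82 kb, at Ly86 the lower regions lie from 2.81 to 11.1 kb and the gain at 54.2 kb, and at Cd180 6 of 7 regions are lower.

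A region with an annotated start was present for each of the 8 genes with a listed start, which allows the promoters to be compared. In order, the authors' deposited table gave -1.63 at Tlr9, -1.62 at Tlr5, -1.46 at Tlr1, -1.19 at Tlr2, -0.72 at Tlr3, -0.46 at Tlr6, 0.11 at Myd88 and 1.1 at Ly86. All 6 receptor genes were on the negative side, and Myd88 and Ly86 on the positive side. The values at Tlr1, Tlr3, Tlr6, Myd88 and Ly86 did not pass an adjusted p of 0.05. Their adjusted p-values were 0.0807, 0.302, 0.865, 0.799 and 0.0847 per the authors' deposited table. With no spread between libraries, the order of neighbouring genes could not be tested. At an adjusted p under 0.05, 3 of the 8 start regions were lower (Tlr2, Tlr5 and Tlr9) and 0 were higher. Among all 12343 regions with an annotated start 9.2% were lower and 8.98% higher, so nothing is read from the count of 0 among 8. The median was -0.96 over the 8 and 0.19 over all start regions. By place, the 11 member regions within 1 kb of a gene end had a median of -0.82, the 12 other regions inside a gene -0.48, and the 28 outside -0.42.

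Among the other genes of TLR signalling, the remaining receptors had 26.3% of their regions lower at 0.05 and the coreceptor list 23.8%, most of the second from Cd180, against 9.21% of all regions. The other adaptors had 17.6% lower and 5.88% higher, and the inhibitors 16.7% lower and 7.14% higher. The kinases and ubiquitin ligases had 5% lower and 8.33% higher, against 9.21% and 7.98% of all regions. Of 38 regions at Tlr7, Tlr8, Tlr11, Tlr12 and Tlr13, the other mouse receptor genes, 10 were lower and 1 was higher at an adjusted p under 0.05, with a median of -0.48. Tlr13, a receptor for bacterial ribosomal RNA, had the 1 region of these that fell at 0.001, chrX:106139283-106140489, at -2.71 (adjusted p = 2.66e-04) per the authors' deposited table. Tlr8, of the endosomal RNA-sensing group, had 4 lower regions of 7, among them its start region chrX:167262514-167264381 at -2.61 (adjusted p = 0.00314) per the authors' deposited table. Tlr12, which senses profilin of protozoa, had 2 of 5, the lowest in p at -2.65 (adjusted p = 0.00221) per the authors' deposited table. Tlr7, Tlr8 and Tlr13 lie on chromosome X, where the median over all regions was -0.45, and its part in their values was not tested.

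Cd180, the TLR-like receptor that Ly86 serves, had the lowest median of the other genes. Of its 7 regions 6 were lower at 0.05 and 2 fell at 0.001, with a median of -2.03. In order along the gene, the authors' deposited table gave -2.27, -2.56, -1.49, -3.03, 0.35, -2.03 and -1.69. The deepest, chr13:102695039-102695813, was 8.15-fold lower (adjusted p = 4.96e-05), and the other that fell, chr13:102689423-102690254, was 5.88-fold lower (adjusted p = 3.89e-04), per the authors' deposited table. Cd180 and Ly86 both lie on chromosome 13 but far apart, as the Ly86 extent ends at 37419036. Over the coreceptor and trafficking list (Ly96, Cd180, Lbp, Cd36, Unc93b1 and Cnpy3 with regions, Hsp90b1 with none), 10 of 42 regions were lower and 1 higher at 0.05. Without Cd180, 4 of 35 (11.4%) were lower, near the 9.21% of all regions. The higher one lay in Unc93b1, which carries nucleic acid-sensing TLRs to endosomes, at 2.34 (adjusted p = 0.00116) per the authors' deposited table.

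Of the other adaptor genes Tirap, Ticam1, Ticam2 and Sarm1, 3 of 17 regions were lower (17.6%) and 1 was higher (5.88%) at 0.05. The lowest p was at Ticam2, which links Tlr4 to Ticam1, at -1.32 (adjusted p = 0.00357) per the authors' deposited table. Of 120 regions at 12 kinase and ubiquitin ligase genes, 10 were higher and 6 lower at 0.05. Leaving out regions equally near to another gene (at Traf3, Ikbke and Tab1), 7 of 114 (6.14%) were higher and 6 (5.26%) lower. At 0.001, 3 of the 120 rose (2.5%) and 2 fell (1.67%), against 1.24% and 1.22% of all regions. Tbk1, a kinase of interferon regulatory factors, had a gain of 2.59 (adjusted p = 8.47e-05) per the authors' deposited table. Irak2, a kinase recruited through Myd88, had a gain of 1.62 (adjusted p = 9.04e-04) per the authors' deposited table. Peli1, a ubiquitin ligase of the pathway, had a gain of 2.44 (adjusted p = 2.40e-04) and losses of -2.92 (adjusted p = 1.04e-04) and -2.00 (adjusted p = 7.95e-04) per the authors' deposited table. Of 42 regions at the inhibitor genes Irak3, Tollip, Tnfaip3 and Sigirr, 7 were lower (16.7%) and 3 higher (7.14%) at 0.05. The higher ones were 2 of 3 regions at Sigirr and 1 of 4 at Tollip. The lower ones were 3 each at Irak3 and Tnfaip3 and 1 at Tollip. Irak3, an inhibitory member of its kinase family, stood at -2.61 (adjusted p = 0.00175) and Tnfaip3, a deubiquitinase that limits NF-kB signals, at -2.39 (adjusted p = 0.00164) at their lowest p per the authors' deposited table. Over all 5 lists, 36 of 259 regions (13.9%) were lower and 16 (6.18%) higher at 0.05, and 5 fell (1.93%) and 3 rose (1.16%) at 0.001.

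**Figure D4:**
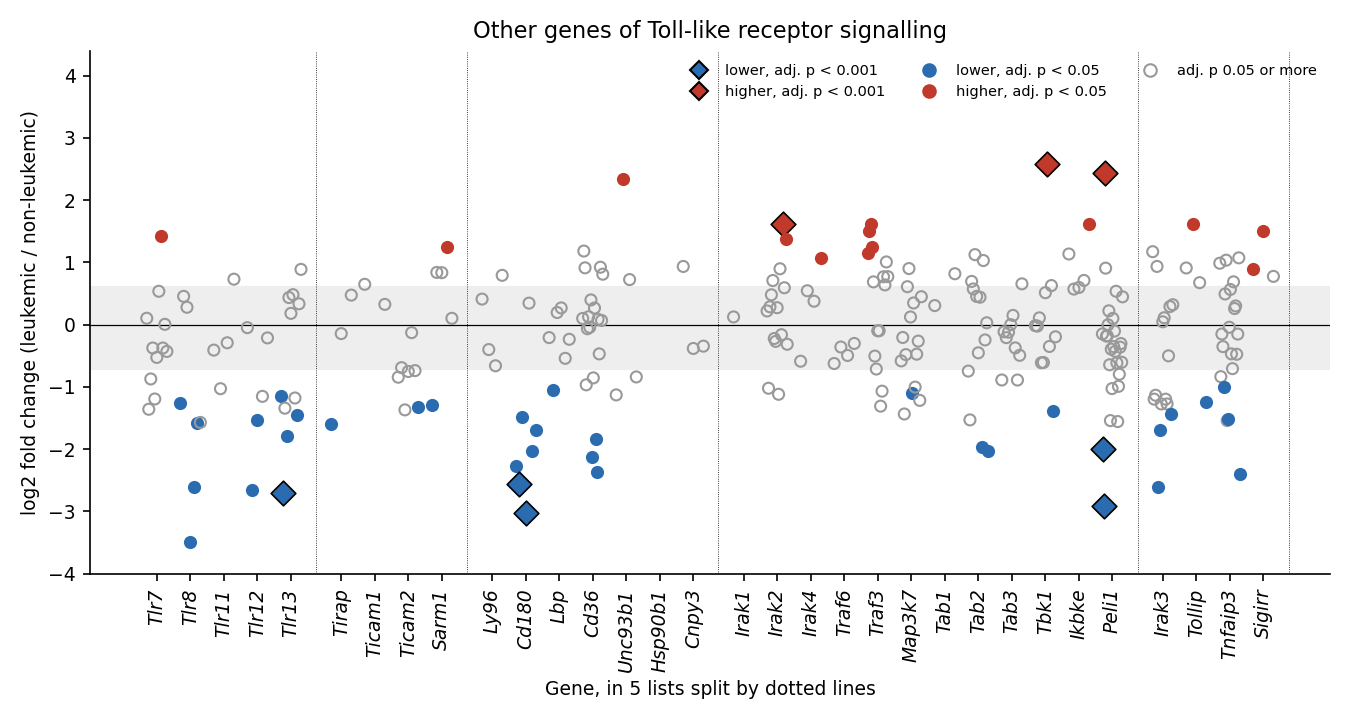
log2 fold change (leukemic over non-leukemic) of the 259 regions at the other pathway genes, in 5 lists (other receptors, other adaptors, coreceptors and trafficking, kinases and ubiquitin ligases, inhibitors); the grey band is the quartile range over all regions. Cd180 has 6 of its 7 regions at -1.49 or lower, and the regions that rose at 0.001 lie at Irak2, Tbk1 and Peli1.

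TLR genes are used by several cell types that the sort could hold, so marker genes were read in the same comparison. The shares at an adjusted p under 0.05 stand against 9.21% lower and 7.98% higher over all regions. That background is not matched in abundance, and abundant regions passed more often. Median log2 abundance was 1.20 for the neutrophil list, -0.05 for dendritic, -0.16 for progenitor and -0.58 for monocyte and macrophage. It was -1.28 for erythroid, -1.35 for T and NK cell and -1.97 for B cell. The part of abundance in the differences between lists was not tested. Neutrophil genes had 10 of 26 regions lower (38.5%) and 1 higher (3.85%), with a median log2 fold change of -0.81. Ltf supplied 5 of those lower regions, Cxcr2 3, and Camp and Mmp8 1 each, whereas S100a8 and Ngp had 0. Dendritic cell genes had 9 of 35 lower (25.7%) and 1 higher (2.86%), with a median of -0.16. Of those lower regions Flt3, which also held the higher one, supplied 4, Zbtb46 on chromosome 2 supplied 3, and Siglech and Xcr1 1 each. Monocyte and macrophage genes had 12 of 50 lower and 12 higher (24% each), with a median of -0.30. F13a1 supplied 9 of those 12 higher regions and no lower one, and without it 12 of 38 (31.6%) were lower and 3 (7.89%) higher. At an adjusted p under 0.001, 6 of the full list's 50 regions rose (12%) and 2 fell (4%), against 1.24% and 1.22% of all regions. F13a1 supplied 5 of the 6 that rose. Without F13a1, 1 of the 38 rose (2.63%) and 2 fell (5.26%) at 0.001. Progenitor genes had 14 of 94 lower (14.9%) and 13 higher (13.8%). Among them Kit had 0 lower and 1 higher of 16, Cd34 5 lower and 0 higher of 7, Gata2 1 lower and 0 higher of 3, Myb 0 lower and 6 higher of 14, Mpo 0 lower and 1 higher of 4, and Erg 8 lower and 5 higher of 50. B-cell genes had 5 of 73 lower (6.85%) and 0 higher, T and NK cell genes 1 of 24 each way (4.17%), and erythroid genes 1 of 16 each way (6.25%). In the authors' deposited table the highest abundance was 3.26 at Kit, against -0.48 at Cd3e and -0.82 at Hba-a1, although Klf1 had 4.11 and Klrb1c 3.66. The part of cell composition in the TLR gene values was not tested.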

How the data were processed

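ATAC-seq regions came from 4 tables of the authors: 1 of 160978 regions and its more accessible (2002), less accessible (1961) and unchanged (19123) sets. The sets were found to be cut from the full table at an adjusted p under 0.001 by sign, or at one over 0.9. Per the submitters' processing notes, the tools were Bowtie2 2.4.1, SAMtools 1.10.2 and Genrich 0.6, and the build GRCm38 (mm10). The deposited title names csaw, a window-based test of differential accessibility; its settings, normalization, read filters and any shift for the transposase are not stated in the sources read here. The deposited log2 fold change is leukemic over non-leukemic. A deposited log2 value was read as average abundance from its position and range. The deposited p-value and its adjusted form are 1 per region, and the adjusted one equals a Benjamini-Hochberg adjustment over all regions to within 2.39e-15. How the windows of a region were combined into its fold and its p-value is not stated. A p-value may therefore not measure the fold printed beside it. At Tlr6, -0.46 at an abundance of 4.34 had an adjusted p of 0.865. There, -0.30 at an abundance of 3.46 had a lower one, 0.342.

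Region centres were given to the nearest of 49993 gene extents (RefSeq, GRCm38.p6), with ties kept for every tied gene. That table has no strand or exons; starts came from the RefSeq promoter table. Coordinates are as deposited, and whether starts count from 0 or 1 is not stated. Python 3.11.15, pandas 2.3.3 and NumPy 2.4.6 were used, and the assignment was tested on simulated data. The members and lists were chosen with earlier results of these data known. Named regions were those under 0.001 and, per member, those with the lowest adjusted p, the highest abundance and at a gene end; other pathway genes were named when under 0.001 or among the next 6 in p. Alternatives were a stricter and a looser threshold, protein-coding genes only, a limit of 20 kb, an abundance minimum and 3 centrings of the folds. Depth per library is unknown, and no interval was set on any fold.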

Additional observations from a re-analysis of the deposited data

How the results depend on the processing

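At an adjusted p under 0.0001, 0 member regions rose and 0 fell by the authors' csaw table. At an unadjusted p under 0.05 there were 4 higher and 20 lower. The shares of all regions at these settings were not computed, so nothing is read from these counts. At an adjusted p under 0.05, 3 member regions were higher (5.88%) and 12 lower (23.5%), against 7.98% and 9.21% of all regions. Every other planned setting (protein-coding genes only, 20 kb, abundance, overlap by 1 base) kept the counts of 1 and 2 at 0.001. The median of -0.50 over the members stayed negative in all 6 alternatives. Single genes turned: the Tlr5 median of -0.27 was 0.013 within 20 kb and 0.29 at or above the median abundance, the Tlr9 median of 0.31 was -0.66 at or above the median abundance, and the Ly86 median of -0.51 was 0.16 with protein-coding genes only. The protein-coding setting gave the members 97 regions, of which 19 (19.6%) were lower and 11 (11.3%) higher at 0.05. The higher share was then above the 7.98% of all regions, whereas by the main rule it was below, at 5.88%. That combination was chosen after the data were seen, as were the backgrounds by abundance and by start and the counts without Cd180, F13a1 or regions near several genes. Without the 11 regions equally near to other genes, the pathway lists had 36 lower and 13 higher of 248 at 0.05. No paired analysis was possible because the table used has 1 value per region and none per library; leaving out a replicate was not possible for the same reason.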

Other observations

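Ly86 shares chromosome 13 with F13a1, a monocyte gene whose 12 regions were all positive, with a median of 1.84 and 9 past an adjusted p of 0.05; 3 of those regions are equally near to another gene. The gain at Ly86 and those at F13a1 are separate genes' regions. How near these genes lie to each other on the chromosome was not examined, and no test linked their gains.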
